A study of Mus musculus with 6 samples.

Results

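The genes described here encode aminoacyl-tRNA synthetases, the enzymes that load each tRNA with its amino acid. They were found by gene symbol in the deposited table. All 35 symbols were present among its 43346 rows, 20 for cytosolic and 15 for mitochondrial enzymes. All 35 also passed the filter on low values, which kept the 13498 rows that reach 1 in 3 or more of the libraries. Lars2, the mitochondrial leucyl enzyme, was left out because its row collects reads of ribosomal RNA.

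The samples were 3 RNA-seq libraries labelled Rorβ-CRISPR (KO) and 3 control libraries. Both lines derive from MC3T3-E1, an established osteoblastic line from mouse skull, and both had 2 days of osteoblast differentiation after reaching confluence. The first line was edited with CRISPR at Rorb, which encodes the nuclear receptor ROR beta. The labels name 1 edited line and 1 control line, without the number of clones, so the edit and other differences between the lines cannot be told apart. Nor do they tell if each replicate was its own culture, and the spread behind the p-values may therefore be technical. Reads in genes ranged from 34662707 to 42603315 per library, and the deposited values are CPM after trimmed-mean (TMM) scaling. The targeted gene Rorb had 69, 78 and 111 reads in the libraries labelled Rorβ-CRISPR, against 1, 3 and 0 in control. Its RNA was thus higher where the label says knockout, and each direction given below follows the labels. All 9 osteoblast markers passed the filter. Of these, Runx2, Sp7, Alpl and Ibsp were higher and Col1a1, Col1a2, Sparc, Bglap and Bglap2 lower, and their summed value was 42521 to 43870.4 in the libraries labelled Rorβ-CRISPR and 71734 to 74207 in control. The leukocyte marker Ptprc, the fat cell markers Plin1, Cidec, Adipoq and Fabp4 and the muscle regulators Myod1 and Myog were at or near 0 in all 6 libraries. Of the 4 muscle markers 1 passed the filter, Acta1, which was called lower (log2 fold change -0.28, adjusted p = 0.0309). The 4 summed to 1.45 to 1.88 in the libraries labelled Rorβ-CRISPR and 2.13 to 2.68 in control. The 4 blood cell markers in the table, of which 2 passed the filter and Lyz2 was lower, summed to 14.2 to 15.2 in the libraries labelled Rorβ-CRISPR and 20.3 to 23.4 in control. The part of these marker differences in the results below was not tested.

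Each synthetase recognises 1 amino acid and its tRNAs, joins them at the cost of ATP, and so sets the supply of charged tRNA for the ribosome. Mammalian cells keep separate nuclear genes for most cytosolic and mitochondrial enzymes, although Gars and Kars each serve both compartments from a single gene. Several cytosolic enzymes are held together in the multisynthetase complex by scaffold proteins. When uncharged tRNA builds up, the kinase GCN2 phosphorylates the initiation factor eIF2, and the transcription factor ATF4 is then translated and activates amino acid transport, amino acid synthesis and many cytosolic synthetase genes. In osteoblasts ATF4 is also known for its part in collagen synthesis.

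The cytosolic synthetase genes split into a lower and a higher group in the libraries labelled Rorβ-CRISPR. Of the 20, limma's moderated test, with p-values adjusted over all tested rows and a threshold of 0.05, called 11 higher and 8 lower. By the same rule 66.2% of all tested rows were called, 32.9% higher and 33.3% lower. The gene left uncalled was Sars, for the seryl enzyme. edgeR on the recovered reads, which called 32.7% of rows higher and 33.3% lower, gave the same call for all 35 members. All cytosolic changes were small: log2 fold changes, on the log2(value + 1) scale, ran from -0.46 for Tars to 0.43 for Iars. Their median was 0.15, beside 0.0025 for all tested rows, and it was 0.050 after subtracting the median of each chromosome. Without the replicate labelled Rorβ-CRISPR 3, or after that subtraction, 5 cytosolic genes were lower rather than 8. None of the 20 reached a fold of 1.5, which 13.9% of tested rows did in one direction or the other. In RNA from whole cultures, fewer cells of a type and less RNA per cell cannot be told apart.

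**Figure D1:**
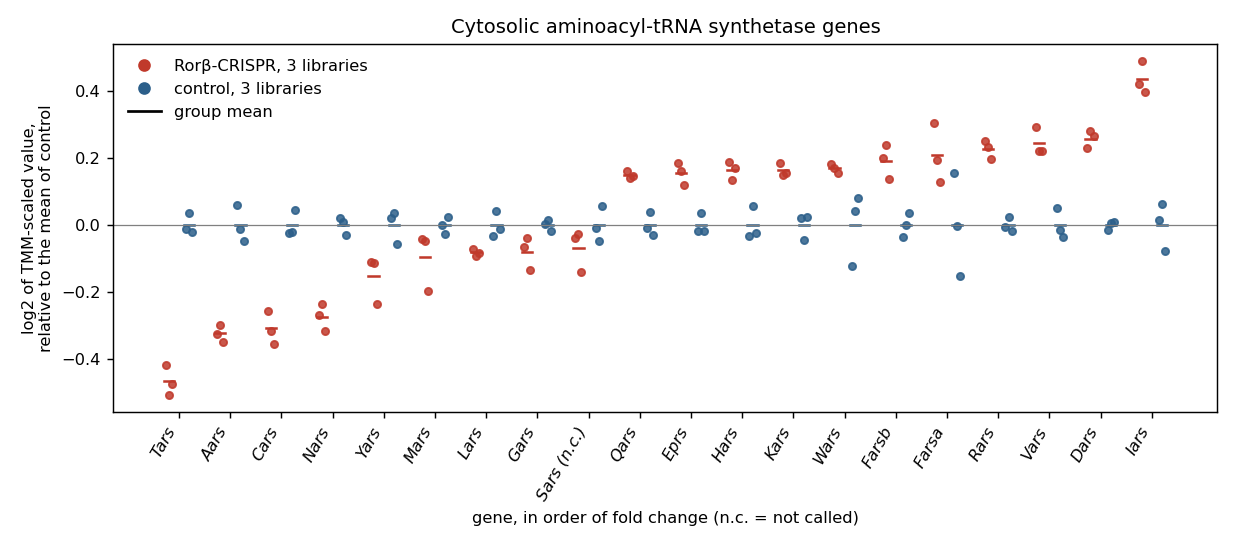
Each point is 1 library, plotted as log2 of its TMM-scaled value relative to the control mean of that gene, with short lines for group means (3 libraries per group). Tars, Aars, Cars and Nars lie lowest in the libraries labelled Rorβ-CRISPR, Iars and Dars highest, and the groups overlap for Sars and Farsa.

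Threonyl-, alanyl-, cysteinyl-, asparaginyl- and tyrosyl-tRNA synthetase genes had the larger decreases. Tars, the threonyl enzyme gene, had values of 79.9, 75.1 and 76.8 in the libraries labelled Rorβ-CRISPR, against 106, 109 and 105 in the control libraries (log2 fold change -0.46, SE 0.035, adjusted p = 8.62e-17). Every library labelled Rorβ-CRISPR lay below every control library. Aars, which serves alanine, had 116, 118 and 114 in those labelled Rorβ-CRISPR, against 151, 144 and 140.3 in control (log2 fold change -0.32, SE 0.032, adjusted p = 9.05e-13). Cars, for cysteine, had 41.6, 39.9 and 38.8 in those labelled Rorβ-CRISPR, against 48.8, 49.0 and 51.3 in control (log2 fold change -0.30, SE 0.044, adjusted p = 4.23e-08). Nars, for asparagine, had 121, 123 and 117 in those labelled Rorβ-CRISPR, against 147, 146 and 142 in control (log2 fold change -0.27, SE 0.031, adjusted p = 7.33e-11). In these 3 genes too the groups did not overlap. Yars, the tyrosyl enzyme gene, was lower by less, with 66.7, 66.6 and 61.2 in those labelled Rorβ-CRISPR, against 73.1, 73.7 and 69.2 in control (log2 fold change -0.15, SE 0.040, adjusted p = 0.000826). Tars lies on chromosome 15, where the median log2 fold change of 479 tested rows was -0.26. After subtracting chromosome medians the value of Tars was -0.19 and it was still called (adjusted p = 6.07e-06). Aars shares 1326 exon bases with Exosc6 on the same strand, 23.1% of its exon length in GENCODE M21, so reads of the 2 genes cannot be told apart there.

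Gars, Mars and Lars were also called lower, by less than 0.1 on the log2 scale. Gars, the glycyl enzyme gene, averaged 196 ± 6.52 in those labelled Rorβ-CRISPR and 207 ± 2.53 in control (log2 fold change -0.080, SE 0.028, adjusted p = 0.0116; means ± SD, n = 3 each). Mars, for methionine, averaged 86.8 ± 5.19 in those labelled Rorβ-CRISPR and 92.6 ± 1.60 in control (log2 fold change -0.094, adjusted p = 0.0231, n = 3 each). Lars, for leucine, averaged 72.1 ± 0.510 in those labelled Rorβ-CRISPR and 76.4 ± 2.06 in control (log2 fold change -0.081, adjusted p = 0.0485, n = 3 each). In all 3 the groups did not overlap, but the authors' deposited table gives q-values of 0.407, 0.278 and 0.29. The Lars call was lost without any 1 of the replicates labelled Rorβ-CRISPR 1, 2 or 3 (adjusted p = 0.0704, 0.0982 and 0.0814) and without control replicate 2 or 3 (0.209 and 0.0654). That of Mars was lost without the replicate labelled Rorβ-CRISPR 3 (adjusted p = 0.322), control 1 (0.0513) or control 3 (0.0842), and that of Gars without Rorβ-CRISPR 3 (0.114) or control 2 (0.0559). After subtracting chromosome medians none of these 3 was called (adjusted p = 0.313 for Gars, 0.229 for Mars and 0.573 for Lars). Sars, for serine, had 107, 108 and 99.7 in those labelled Rorβ-CRISPR, against 109, 106 and 114 in control, and its groups overlapped (log2 fold change -0.068, SE 0.034, adjusted p = 0.0794). Without the replicate labelled Rorβ-CRISPR 2 or control replicate 2, Sars was called lower (adjusted p = 0.0337 and 0.041). Mars shares 68 exon bases with Ddit3 on the opposite strand.

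Because ATF4 activates many cytosolic synthetase genes, promoters were read for TGATGNAA, the core of the composite element that ATF4 shares with C/EBP factors. The windows, from RefSeq on GRCm38.p6, run from 250 bases before to 50 after each gene's start, and both strands were searched. They were available for 13 cytosolic genes and 13 mitochondrial genes. Cars, Hars, Lars, Nars, Rars, Vars, Wars, Hars2 and Pars2 were not matched, and Mars was matched as Mars1. TGATGNAA occurred in 5 of the 13 cytosolic promoters (38.5%), in 0 of the 13 mitochondrial ones and in 3.97% of 32851 windows of the same length. The E-box CACGTG, read in the same way, occurred in 4 cytosolic promoters (30.8%), in 1 mitochondrial one (7.69%) and in 7.15% of all windows. The 5 genes with TGATGNAA were Aars, Gars, Iars, Tars and Yars, and their sequences around the element are shown to let it be compared between them. The printed stretch of Aars ends before the start, while the other 4 include it. Capitals mark TGATGNAA, or its reverse complement, and CACGTG, and the motifs do not overlap.
Tars: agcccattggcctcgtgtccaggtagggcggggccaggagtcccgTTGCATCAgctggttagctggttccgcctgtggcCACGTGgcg
Aars: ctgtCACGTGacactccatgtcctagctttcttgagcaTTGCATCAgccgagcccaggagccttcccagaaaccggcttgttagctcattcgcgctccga
Yars: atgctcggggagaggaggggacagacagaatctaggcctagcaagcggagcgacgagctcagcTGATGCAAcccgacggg
Gars: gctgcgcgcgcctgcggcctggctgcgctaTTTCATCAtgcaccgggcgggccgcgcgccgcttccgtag
Iars: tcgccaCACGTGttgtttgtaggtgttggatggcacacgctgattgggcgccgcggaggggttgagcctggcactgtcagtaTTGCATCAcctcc
All are written 5′ to 3′ in the direction of the gene, at chr15:11399631-11399718 on the minus strand for Tars, chr8:111033692-111033791 on the plus strand for Aars, chr4:129189843-129189922 on the plus strand for Yars, chr6:55037941-55038010 on the plus strand for Gars and chr13:49682055-49682149 on the plus strand for Iars. The element begins 15 bases before the start in Tars, 112 before it in Aars and 30 before it in Gars, and 3 bases after the start in Yars and 7 after it in Iars. A second match in Aars, 9 bases after the start, lies outside the stretch printed. Of the 5 genes, Tars, Aars, Yars and Gars were called lower and Iars was called higher. Of the 8 cytosolic genes whose window lacks the letters, 6 were higher, 1 (Mars) lower and 1 (Sars) not called. Over all tested rows 32.9% were higher and 33.3% lower. The Gars call was lost after subtracting chromosome medians. With library size only in place of TMM factors, log2 fold changes were 0.15 for Gars and 0.072 for Yars. This split was made after the values were seen and was not tested. A match describes letters in a window and is not a binding site.

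Of the 8 synthetase genes of the multisynthetase complex, 6 were higher and 2, Mars and Lars, lower, beside 32.9% and 33.3% of all tested rows. Their median log2 fold change was 0.16. Of the 12 cytosolic genes outside it, 5 were higher and 6 lower, with a median of -0.074. This grouping was laid over the results after they were seen and was not tested. Iars, the isoleucyl enzyme gene, stood highest, with 109, 114 and 107 in those labelled Rorβ-CRISPR, against 81.9, 84.7 and 76.8 in control (log2 fold change 0.43, SE 0.036, adjusted p = 4.29e-15). Its chromosome 13 had a median of 0.20, and after subtracting it the value of Iars was 0.24 (adjusted p = 1.27e-07). Dars, for aspartate, had 115, 119 and 118 in those labelled Rorβ-CRISPR, against 97.0, 98.6 and 98.8 in control (log2 fold change 0.26, SE 0.032, adjusted p = 1.04e-09). Dars lies on chromosome 1, and its value was 0.13 after subtracting that chromosome's median (adjusted p = 0.000268). Rars, for arginine, had 111, 109.6 and 107 in those labelled Rorβ-CRISPR, against 92.9, 94.9 and 92.0 in control (log2 fold change 0.22, SE 0.033, adjusted p = 4.94e-08). All 3 genes were higher in every library labelled Rorβ-CRISPR than in any control library.

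Kars, for lysine, had 171, 166 and 167 in those labelled Rorβ-CRISPR, against 152, 146 and 153 in control (log2 fold change 0.16, SE 0.029, adjusted p = 3.79e-06). Qars, for glutamine, had 102, 101 and 101 in those labelled Rorβ-CRISPR, against 91.0, 94.2 and 89.9 in control (log2 fold change 0.15, SE 0.033, adjusted p = 0.000127). Eprs, a fused enzyme for glutamate and proline, had 276, 271 and 263 in those labelled Rorβ-CRISPR, against 239, 249 and 239.6 in control (log2 fold change 0.16, SE 0.027, adjusted p = 1.25e-06). The groups did not overlap in these 3 genes either. Eprs and Farsb lie on chromosome 1, whose tested rows had a median of 0.12. Without that median both calls were lost (log2 fold changes of 0.034 and 0.067, adjusted p = 0.26 and 0.198). The 3 scaffold genes of the complex were all higher. Aimp1 had 82.6, 79.9 and 80.6 in those labelled Rorβ-CRISPR, against 72.4, 70.6 and 69.6 in control (log2 fold change 0.19, SE 0.036, adjusted p = 7.96e-06). Aimp2 had 59.4, 55.5 and 55.5 in those labelled Rorβ-CRISPR, against 40.6, 40.8 and 39.7 in control (log2 fold change 0.48, SE 0.043, adjusted p = 3.14e-14). Eef1e1, also called AIMP3, had 21.9, 23.4 and 19.3 in those labelled Rorβ-CRISPR, against 12.9, 14.3 and 12.5 in control (log2 fold change 0.66, SE 0.068, adjusted p = 4.82e-12). Groups did not overlap in any of the 3 scaffold genes. After subtracting chromosome medians the log2 fold change of Aimp2 was 0.28 (adjusted p = 1.97e-07). In GENCODE M21 40.8% of Aimp2 exon bases overlap Eif2ak1 on the opposite strand. Eif2ak1 was itself called higher (log2 fold change 0.085, adjusted p = 0.0264).

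Outside the complex, Vars, the valyl enzyme gene, had 156, 148 and 148 in those labelled Rorβ-CRISPR, against 131, 126 and 124 in control (log2 fold change 0.24, SE 0.031, adjusted p = 1.87e-09). Farsa and Farsb encode the alpha and beta subunits of the phenylalanyl enzyme and both were called higher. Farsb had 43.5, 44.7 and 41.6 in those labelled Rorβ-CRISPR, against 37.0, 37.8 and 38.8 in control (log2 fold change 0.19, SE 0.045, adjusted p = 0.000315), with no overlap. Farsa had 34.0, 31.5 and 30.1 in those labelled Rorβ-CRISPR, against 30.6, 27.5 and 24.8 in control (log2 fold change 0.20, SE 0.059, adjusted p = 0.00309), with the groups overlapping. Farsa was not called without control replicate 3 (adjusted p = 0.0567). Hars, for histidine, averaged 67.5 ± 1.27 in those labelled Rorβ-CRISPR and 60.3 ± 2.04 in control (log2 fold change 0.16, mean ± SD, n = 3 each, adjusted p = 0.000295). Wars, for tryptophan, averaged 44.9 ± 0.426 in those labelled Rorβ-CRISPR and 40.0 ± 2.92 in control (log2 fold change 0.17, mean ± SD, n = 3 each, adjusted p = 0.0018). Wars was not called without control replicate 1 (adjusted p = 0.0531). Farsb and Hars share 248 and 195 exon bases with genes on the opposite strand, Sgpp2 and Hars2. All libraries labelled Rorβ-CRISPR were above all control libraries in 10 cytosolic genes and below them in 8. Over all tested rows 68.4% had groups that did not overlap, 33.9% above and 34.5% below. The authors' deposited table, at q under 0.05, has 11 cytosolic genes higher and 5 lower, while 28.1% of tested rows were higher and 28.9% lower.

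The mitochondrial synthetase genes were mostly higher in the libraries labelled Rorβ-CRISPR. Of 15 genes, 8 were higher, 2 lower and 5 not called, against 32.9% of all tested rows higher and 33.3% lower. Their median log2 fold change was 0.17 and their range -0.62 to 0.54, wider than that of the cytosolic genes. The median was 0.10 without the replicate labelled Rorβ-CRISPR 1 and 0.26 without Rorβ-CRISPR 2. Yars2, for tyrosine, had 15.5, 18.9 and 19.1 in those labelled Rorβ-CRISPR, against 11.0, 12.0 and 12.9 in control (log2 fold change 0.54, SE 0.074, adjusted p = 2.02e-08). Cars2, for cysteine, had 7.96, 8.14 and 7.55 in those labelled Rorβ-CRISPR, against 5.82, 5.37 and 4.55 in control (log2 fold change 0.51, SE 0.092, adjusted p = 3.23e-06). Mars2, for methionine, had 19.2, 24.0 and 23.3 in those labelled Rorβ-CRISPR, against 15.8, 15.4 and 14.7 in control (log2 fold change 0.50, SE 0.067, adjusted p = 8.64e-09). In all 3 every library labelled Rorβ-CRISPR exceeded every control library, and replicate 1 was the lowest of that group for Yars2 and Mars2. Wars2, for tryptophan, had 24.8, 24.4 and 25.2 in those labelled Rorβ-CRISPR, against 17.0, 17.2 and 18.0 in control (log2 fold change 0.49, SE 0.058, adjusted p = 2.95e-10). Nars2, for asparagine, had 8.37, 9.20 and 9.03 in those labelled Rorβ-CRISPR, against 6.55, 6.26 and 6.56 in control (log2 fold change 0.40, SE 0.085, adjusted p = 4.56e-05). Iars2, for isoleucine, had 86.5, 88.7 and 90.8 in those labelled Rorβ-CRISPR, against 69.4, 74.0 and 70.5 in control (log2 fold change 0.31, SE 0.036, adjusted p = 1.48e-10). The groups did not overlap in these 3 genes. Iars2 lies on chromosome 1, and after subtracting its median the value was 0.19 (adjusted p = 1.15e-05). Vars2, for valine, had 33.5, 32.8 and 35.8 in those labelled Rorβ-CRISPR, against 28.1, 27.8 and 28.4 in control (log2 fold change 0.26, SE 0.050, adjusted p = 8.74e-06). In GENCODE M21 32.2% of Iars2 exon bases overlap genes on the opposite strand, among them Rab3gap2, and the strand setting of the counting is not given in the sources used here.

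Sars2 and Aars2 went the other way. Sars2, the mitochondrial seryl enzyme gene, had 4.66, 5.66 and 5.29 in those labelled Rorβ-CRISPR, against 8.60, 9.32 and 7.77 in control (log2 fold change -0.62, SE 0.092, adjusted p = 4.83e-08). It was the only member past a fold of 1.5 on this scale. Aars2, for alanine, had 13.4, 14.6 and 14.5 in those labelled Rorβ-CRISPR, against 18.5, 20.1 and 18.7 in control (log2 fold change -0.41, SE 0.065, adjusted p = 3.00e-07). The groups did not overlap in either gene. Ears2, for glutamate, was called higher with overlapping groups, at 14.2, 11.2 and 13.0 in those labelled Rorβ-CRISPR, against 11.3, 11.0 and 11.4 in control (log2 fold change 0.17, SE 0.077, adjusted p = 0.0449). The Ears2 call was lost when any 1 of 5 libraries was left out: Rorβ-CRISPR replicate 1 (adjusted p = 0.321) or 3 (0.0964), or control replicate 1 (0.074), 2 (0.104) or 3 (0.0627). The authors' deposited table gives Ears2 a q-value of 0.199. At q under 0.05 that table has 7 mitochondrial genes higher and 2 lower, while 28.1% of tested rows were higher and 28.9% lower. Hars2, Pars2, Fars2, Rars2 and Tars2, which serve histidine, proline, phenylalanine, arginine and threonine, had log2 fold changes of -0.039 to 0.083, were not called, and overlapped between the groups. Values of these 5 genes ranged from 4.54 to 30.4 over the 6 libraries.

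**Figure D2:**
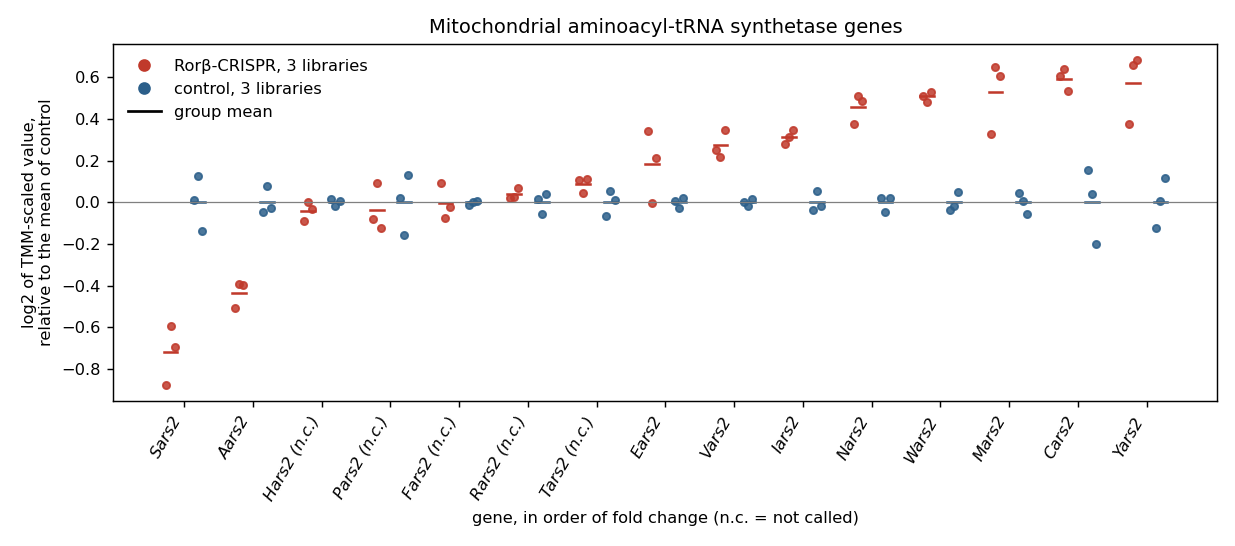
Points, lines and scale are as for the cytosolic genes, with 3 libraries per group. Sars2 and Aars2 lie below control in all 3 libraries labelled Rorβ-CRISPR, and Vars2, Iars2, Nars2, Wars2, Mars2, Cars2 and Yars2 above it.

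Synthetases fall into class I and class II by the fold of their catalytic domain. Among the mitochondrial genes, 7 of 8 for class I enzymes were higher and 0 lower (median log2 fold change 0.40), with Rars2 not called. Over all tested rows 32.9% were higher and 33.3% lower. Ears2, 1 of the 7, is the gene whose call was lost without any 1 of 5 libraries. Of 7 for class II enzymes, 1 (Nars2) was higher, 2 (Sars2 and Aars2) lower and 4 not called (median -0.029). In the cytosolic genes the classes had 5 higher and 4 lower of 9 for class I, and 5 higher and 4 lower of 10 for class II, leaving aside Eprs, which holds a domain of each class. The split by class was made after the values were seen and was not tested.

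Most amino acids could be followed in both compartments, as 15 mitochondrial genes gave 16 pairings with a cytosolic gene. Both genes were higher in 4 pairings, those of isoleucine (Iars and Iars2), valine (Vars and Vars2), tryptophan (Wars and Wars2) and glutamate (Eprs and Ears2). Both were lower for alanine (Aars and Aars2). In 4 pairings the cytosolic gene was lower and the mitochondrial gene higher. These were cysteine (Cars -0.30, Cars2 0.51), asparagine (Nars -0.27, Nars2 0.40), methionine (Mars -0.094, Mars2 0.50) and tyrosine (Yars -0.15, Yars2 0.54), all as log2 fold changes. No pairing had the cytosolic gene higher and the mitochondrial gene lower. In each of the other 7, 1 gene was called and 1 was not. Over all tested rows 32.9% were higher and 33.3% lower. The calls of Mars and Eprs were lost after subtracting chromosome medians, and that of Ears2 without any 1 of 5 libraries. With library size only in place of TMM factors, log2 fold changes were 0.13 for Mars and 0.072 for Yars. The differences within pairings were not tested.

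**Figure D3:**
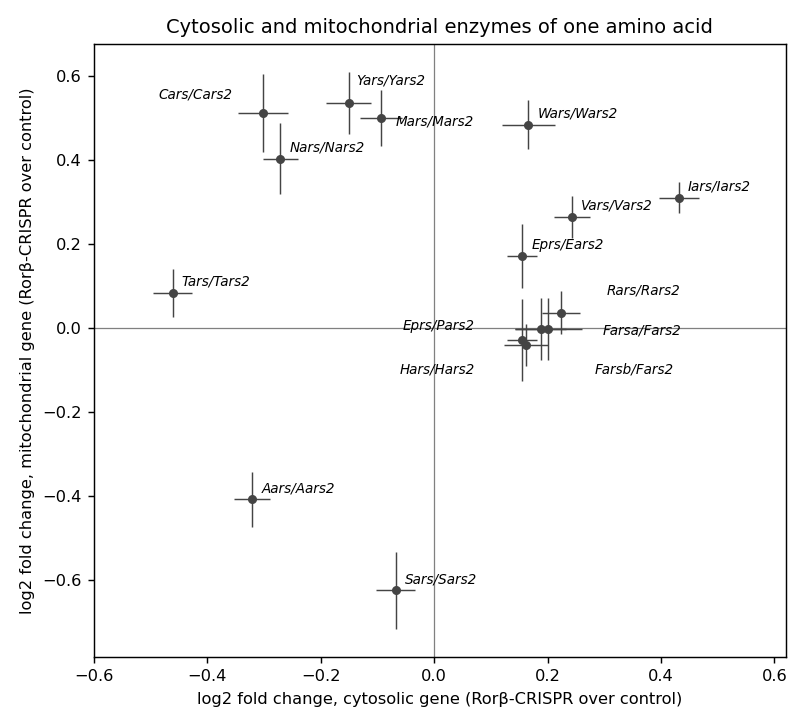
Log2 fold change (libraries labelled Rorβ-CRISPR over control) of the cytosolic gene on the horizontal axis and of the mitochondrial gene for the same amino acid on the vertical axis, with bars of 1 SE from limma. Cysteine, asparagine, methionine and tyrosine lie at the upper left, alanine at the lower left.

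Levels were compared between genes after division by exon length (GENCODE M21, basic set). Per kilobase, the cytosolic genes ranged from 12.5 (Cars) to 82.2 (Gars) in the libraries labelled Rorβ-CRISPR, and from 13.9 (Wars) to 86.8 (Gars) in control. Kars came second in both groups, at 74.8 per kilobase in the libraries labelled Rorβ-CRISPR and 66.9 in control. The mitochondrial genes ranged from 1.62 (Pars2) to 15.0 (Rars2) in the libraries labelled Rorβ-CRISPR, and from 1.35 (Mars2) to 14.6 (Rars2) in control. The 20 cytosolic genes summed to 2122, 2109.6 and 2044 in the libraries labelled Rorβ-CRISPR, against 2059, 2068 and 2035 in control, in TMM-scaled CPM (2092 ± 42.0 in those labelled Rorβ-CRISPR and 2054 ± 17.2 in control, mean ± SD, n = 3 each), and these groups overlapped. For the 15 mitochondrial genes the sums were 325, 334 and 341 in the libraries labelled Rorβ-CRISPR, against 287, 293 and 291 in control (333 ± 8.27 in those labelled Rorβ-CRISPR and 290.4 ± 2.87 in control), with no overlap. Both sums describe the members, with no test.

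Genes of the amino acid response, the programme that ATF4 drives, were mostly lower where the label was Rorβ-CRISPR. Among the 35 of 37 listed genes that passed the filter, 23 were lower and 7 higher, beside 33.3% and 32.9% of all tested rows, and 5 were not called. The list's median log2 fold change was -0.26. Trib3, a pseudokinase gene induced by ATF4, had 1.22, 1.65 and 0.998 in those labelled Rorβ-CRISPR, against 7.74, 8.80 and 6.98 in control (log2 fold change -1.95, SE 0.11, adjusted p = 1.38e-21). Bcat1, for the cytosolic branched-chain aminotransferase, had 24.0, 26.1 and 23.4 in those labelled Rorβ-CRISPR, against 60.5, 57.6 and 56.3 in control (log2 fold change -1.21, SE 0.048, adjusted p = 7.39e-28). Slc7a5, for the light chain of the LAT1 transporter of large neutral amino acids, had 106, 107 and 101 in those labelled Rorβ-CRISPR, against 145, 149.7 and 148 in control (log2 fold change -0.49, SE 0.032, adjusted p = 2.71e-19). None of these groups overlapped. Atf4 RNA itself had 151, 153 and 148 in those labelled Rorβ-CRISPR, against 208, 208 and 209 in control (log2 fold change -0.47, SE 0.028, adjusted p = 1.87e-20). Atf4 lies on chromosome 15, and after subtracting the chromosome median its log2 fold change was -0.19 (adjusted p = 4.84e-08). ATF4 protein is set largely by translation, so this RNA level does not measure its activity.

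Chosen after the values were seen, Asns, for asparagine synthetase, had 39.9, 44.4 and 41.9 in those labelled Rorβ-CRISPR, against 58.8, 56.6 and 59.5 in control (log2 fold change -0.46, SE 0.043, adjusted p = 1.78e-13). Chac1, for a glutathione-degrading enzyme and likewise chosen, had 1.57, 1.74 and 1.81 in those labelled Rorβ-CRISPR, against 4.44, 4.49 and 3.56 in control (log2 fold change -0.93). TGATGNAA, searched as above, was in the promoters of 9 of 31 matched genes of this list (29.0%), and all 9 genes (Asns, Atf3, Chac1, Nupr1, Pycr1, Slc1a4, Slc7a11, Trib3 and Vldlr) were called lower. A gene with several windows counted if any of them matched. Atf4 and Bcat1 were also lower, and their windows lacked the letters. In the whole list 23 of 35 tested genes were lower, and the split by motif was not tested. Psat1, Phgdh, Shmt2, Mthfd1l, Slc7a1, Slc1a5 and Slc6a9 were the 7 higher genes, with log2 fold changes of 0.11 to 0.36. They serve serine and one-carbon synthesis and the uptake of basic and small neutral amino acids. Other listed genes with such functions were not higher. Aldh1l2 (-0.98), Mthfd2 (-0.19) and Slc1a4 (-0.19) were called lower, and Psph (-0.12) and Slc38a2 (-0.019) were not called.

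Among 8 genes of eIF2 alpha kinases and their regulators, 6 were higher, 1 lower and 1 not called, beside 32.9% of all tested rows higher and 33.3% lower. Gcn1l1, a coactivator of GCN2, had 115, 119.6 and 119 in those labelled Rorβ-CRISPR, against 94.3, 89.8 and 84.9 in control (log2 fold change 0.39, SE 0.035, adjusted p = 3.57e-14). Eif2ak4, the gene of GCN2 itself, named after its values were seen, had 36.6, 38.0 and 37.7 in those labelled Rorβ-CRISPR, against 30.3, 31.5 and 26.2 in control (log2 fold change 0.35). Ppp1r15b, a subunit of the eIF2 alpha phosphatase, had 163, 164 and 159 in those labelled Rorβ-CRISPR, against 127, 129 and 131 in control (log2 fold change 0.33). Eif2s1, which encodes eIF2 alpha itself, had 84.1, 80.2 and 79.4 in those labelled Rorβ-CRISPR, against 66.3, 64.9 and 66.2 in control (log2 fold change 0.30). The list's median was 0.26. After subtracting chromosome medians, log2 fold changes were 0.19 for Gcn1l1 (adjusted p = 1.33e-05) and 0.21 for Ppp1r15b (adjusted p = 3.34e-08). Eif2ak2, the interferon-induced kinase PKR, was the 1 lower gene, at 47.4, 47.1 and 47.7 in those labelled Rorβ-CRISPR, against 63.9, 67.3 and 67.2 in control (log2 fold change -0.47, SE 0.040, adjusted p = 7.25e-15).

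Genes that process and export tRNA were mostly higher, with 15 higher, 1 lower and 7 not called of 23 tested (median log2 fold change 0.22). Of all tested rows 32.9% were higher and 33.3% lower. Xpot, the nuclear export receptor for tRNA, had 115, 121 and 115 in those labelled Rorβ-CRISPR, against 91.8, 92.5 and 91.4 in control (log2 fold change 0.35, SE 0.033, adjusted p = 2.48e-13). Ssb, the La protein that binds new tRNA transcripts, had 188, 189 and 186 in those labelled Rorβ-CRISPR, against 156, 163 and 165 in control (log2 fold change 0.22). In GENCODE M21 28.7% of Ssb exon bases overlap genes on the opposite strand, among them Mettl5. Pop7, an RNase P subunit gene, had 15.1, 14.7 and 16.2 in those labelled Rorβ-CRISPR, against 9.71, 11.7 and 10.6 in control (log2 fold change 0.49, or 0.28 after subtracting the chromosome median). Hsd17b10, a subunit of mitochondrial RNase P on chromosome X, had 56.9, 53.7 and 53.8 in those labelled Rorβ-CRISPR, against 26.5, 26.5 and 24.7 in control (log2 fold change 1.05, or 0.40 after subtracting the chromosome median). Rpp14, on chromosome 14, was the lower one (-0.17, named after its value was seen), and its symbol has another row that was not used. That call was lost after subtracting the chromosome median.

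Among 6 relatives of the synthetases outside the members, 1 gene was higher, 1 lower and 4 not called. For this list and for the mitochondrial charging genes below, the shares over all tested rows were 32.9% higher and 33.3% lower. Tarsl2, a further threonyl-tRNA synthetase gene, had 27.1, 26.2 and 25.2 in those labelled Rorβ-CRISPR, against 11.8, 12.6 and 13.0 in control (log2 fold change 1.02, SE 0.062, adjusted p = 4.20e-20), opposite in direction to Tars. Prorsd1, for a protein related to the editing domain of prolyl-tRNA synthetase, was lower, at 17.8 ± 0.904 in those labelled Rorβ-CRISPR and 22.8 ± 1.76 in control (log2 fold change -0.34, means ± SD, n = 3 each). Of 4 genes that complete charging in mitochondria, Gatc, a subunit of the amidotransferase that makes glutaminyl-tRNA, was higher (log2 fold change 0.53, or 0.32 after subtracting the chromosome median), and Qrsl1, its catalytic subunit, lower (-0.33). Gatb, the remaining subunit, and Mtfmt, which formylates initiator methionyl-tRNA, were not called (-0.13 and 0.13).

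**Figure D4:**
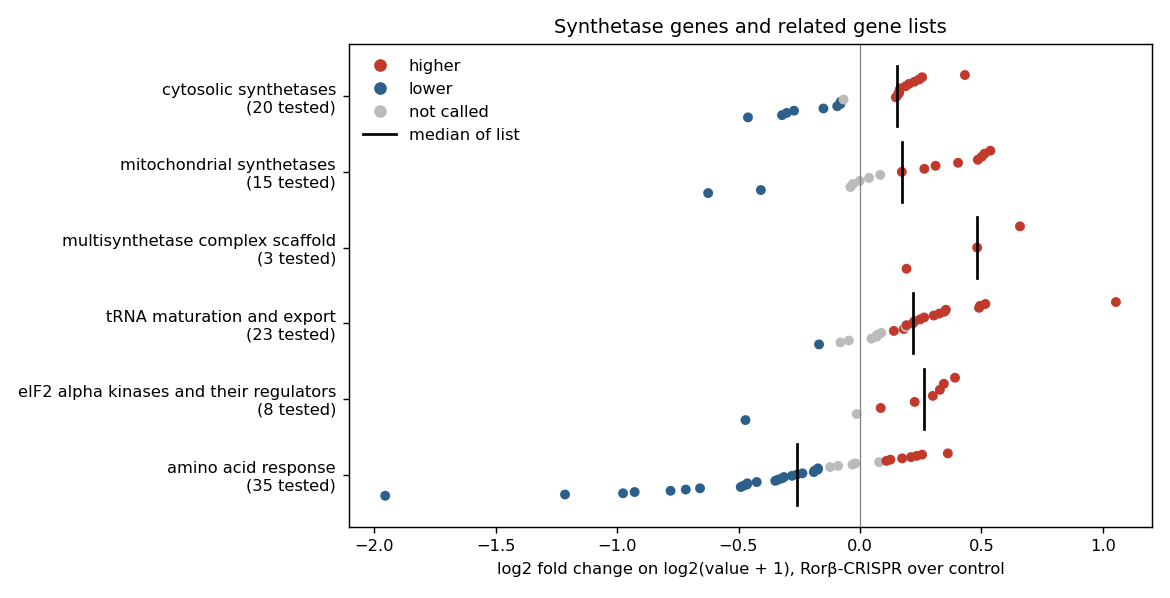
Log2 fold change on the log2(value + 1) scale (libraries labelled Rorβ-CRISPR over control) of every tested gene of 6 lists. Points are coloured by call at an adjusted p of 0.05 and black lines are list medians, which lie above 0 for all lists but the amino acid response.

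Directions of the smaller changes rest on the scaling. The 3 rows that collect ribosomal RNA reads took 13.1% to 15.2% of reads in the libraries labelled Rorβ-CRISPR, against 16.9% to 25.4% in control. Lars2, 1 of these rows, averaged 6872 ± 512 in those labelled Rorβ-CRISPR and 11079 ± 3176 in control (SD, n = 3 each) and was not called. With library size only in place of TMM factors, the median of all tested rows moved to 0.21 and the synthetase genes moved with it. Of the 8 lower cytosolic genes, Tars stayed called (-0.24, adjusted p = 0.000541). Aars, Cars and Nars kept values below 0 without a call (-0.10, -0.081 and -0.047). Yars, Mars, Lars and Gars turned above 0 (0.072, 0.13, 0.14 and 0.15), and all 4 were below the median of all rows in that scaling. Sars2 and Aars2 remained lower and called (-0.43 and -0.20). The 11 higher cytosolic and 8 higher mitochondrial genes were also called higher with library size only, a scaling in which 54.0% of all rows were higher and 14.6% lower. The median of the cytosolic genes was then 0.38 and that of the mitochondrial genes 0.38. In the amino acid response list 12 genes stayed lower, among them Trib3 (-1.79) and Atf4 (-0.24).

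**Figure D5:**
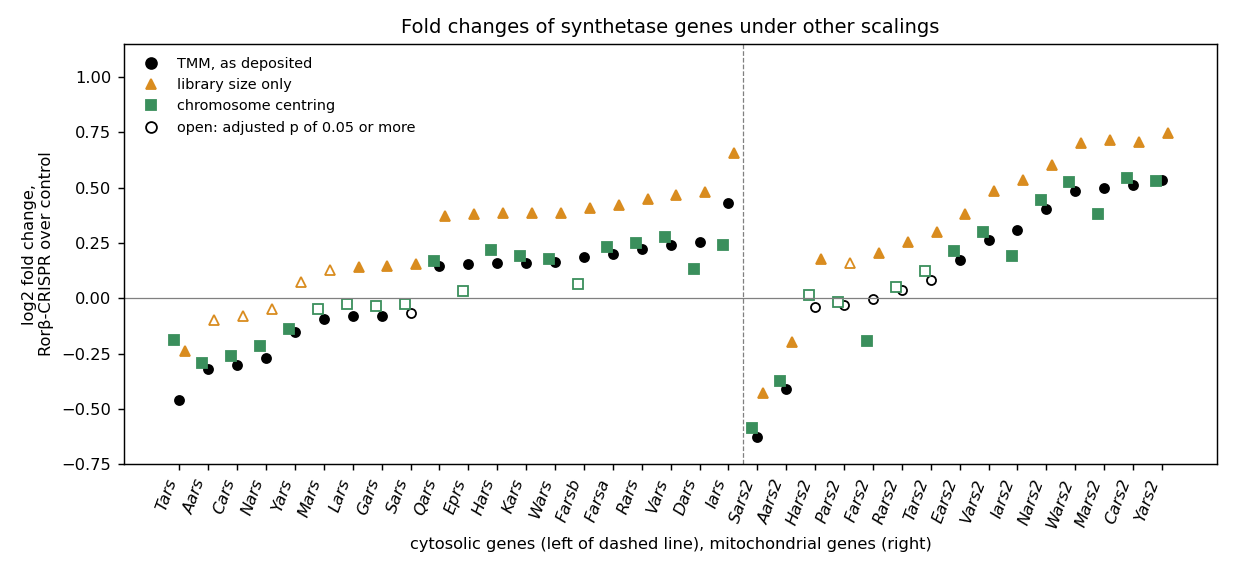
Log2 fold change (libraries labelled Rorβ-CRISPR over control) of the 35 genes with the deposited TMM scaling, with library size only and after subtracting chromosome medians in each library. Filled symbols have an adjusted p under 0.05. The library size values lie above the TMM values in all 35 genes.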

How the data were processed

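For each gene symbol and library the deposited table holds a signal that the authors scaled with trimmed-mean (TMM) factors, per the file headers. Group median counts, a fold (ratio), a p-value and a q-value were deposited as well, from a test that the headers do not name. Per the submitters' processing notes, the tools were TopHat2 2.0.6 and HTSeq, with mm9 as genome build. Annotation and strand setting were not given in the sources used here. In every library, dividing by what 1 read is worth gave whole reads, within 0.01, for 100% of values. The recovered reads had the deposited median counts as their group medians in each of 43346 rows.

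limma-trend (robust) was fitted to log2(value + 1) in all 6 libraries without covariates, for the 13498 rows reaching 1 in 3 or more libraries. P-values were adjusted by Benjamini-Hochberg over those rows and called at 0.05. Fold changes on this scale understate changes of low values. The fits were tested on simulated counts. With the recovered reads edgeR (quasi-likelihood) called 4419 rows higher and 4492 lower. The alternatives were DESeq2, limma-voom, other scalings, filters and pseudocounts, a replicate block, leaving out each library, an adjusted p of 0.01, and centring by chromosome (RefSeq GRCm38.p6 matched 12586 tested rows).

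The members and lists were chosen with earlier results of these data known. All 35 members are named. In other lists the rule took up to 4 called genes of smallest adjusted p, and any gene chosen later is marked so. Promoters came from RefSeq GRCm38.p6, and exon lengths and overlaps from GENCODE M21 on GRCm38. The only coordinates given are those of the printed promoter stretches, on GRCm38.p6, while the authors' build was mm9. Near-identical stretches of at least 200 bases at 90% identity or more, whose counts are uncertain, were found for Aars (Exosc6), Iars2 (Rab3gap2), Farsb (Sgpp2), Cars2 (Naxd) and Nars2 (C230038L03Rik). Tests used edgeR 4.0.16, limma 3.58.1 and DESeq2 1.42.0 in R 4.3.3. Tables and figures used pandas 2.3.3, numpy 2.4.6 and matplotlib 3.10.9 in Python 3.11.15.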

Additional observations from a re-analysis of the deposited data

How the results depend on the processing

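With library size only, 7291 rows were higher and 1975 lower, 1 cytosolic gene was lower, the medians of the cytosolic and mitochondrial genes were 0.38 and 0.38, and 12 amino acid response genes and 0 tRNA maturation genes were lower. In that scaling, log2 fold changes changed sign for Gars (0.15), Lars (0.14), Mars (0.13), Sars (0.16), Yars (0.072), Fars2 (0.21) and Hars2 (0.18). The sign also changed for Pars2 (0.16), which was called in neither scaling. That setting shifts the median row by 0.21 by its construction. At an adjusted p of 0.01, and after chromosome centring, 5 cytosolic genes were lower. Chromosome centring also gave a cytosolic median of 0.050 and 0 lower tRNA maturation genes, and called Fars2 lower (adjusted p = 0.0213). Leaving out 1 library at a time gave 5 to 8 lower cytosolic genes (5 without the replicate labelled Rorβ-CRISPR 3), a cytosolic median of 0.12 to 0.15 and a mitochondrial median of 0.10 to 0.26, lowest without the replicate labelled Rorβ-CRISPR 1. The cause of these moves was not tested. Of the 35 members, 35 kept direction and side of the threshold with edgeR, DESeq2 size factors, upper quartile factors, the CPM filter and both other pseudocounts. The calls of Lars and Ears2 were lost with DESeq2, that of Ears2 with limma-voom, that of Lars with TMM factors made without ribosomal RNA rows, and those of Lars, Mars and Ears2 without a filter, which left 6 lower cytosolic and 7 higher mitochondrial genes.

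Whether replicate numbers pair the libraries is not settled. Correlations of deviations from the group means were -0.056, 0.17 and 0.13 for numbers 1, 2 and 3. Between libraries with different numbers they ran from -0.21 to 0.11. With the replicate number as a block, 4502 rows were higher and 4551 lower, and 11 cytosolic genes were higher and 8 lower, and 8 mitochondrial genes higher and 2 lower. Members had 172 to 12492 reads per library, and precision is lowest for the mitochondrial genes with the fewest reads.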
